A study of Mus musculus with 16 samples.

Results

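The 10 keratin genes described here build the hair and its inner sheath, and they were chosen by name. Krt25, Krt27, Krt28, Krt71, Krt72 and Krt73 encode keratins of the inner root sheath, and Krt31, Krt34, Krt35 and Krt85 encode keratins of the hair shaft. The array carries 13 probes for these 10 genes, among 55681 probes, and all 10 were among the 21981 genes tested. Each of 16 Agilent arrays compared total RNA of a mouse melanoma biopsy, labelled with Cy5, with a universal mouse reference labelled with Cy3. The labels place 4 biopsies each in untreated tumours, tumours treated for 4 days, tumours treated for 60 days and resistant tumours at day 120. The series title names the treatment only as BRAF inhibition, and neither the drug nor the genotype, strain or age of the mice is given in the sources used here. The 4-day biopsies carry another series of title codes than all other biopsies, so the effect of 4 days of treatment cannot be told apart from their origin or handling. The other groups share no title code either. Untreated replicates 1 to 3 carry RG10 and replicate 4 RG9, 60-day biopsies RG6 or RG7 and resistant ones RG4 or RG5. The labels do not explain the codes, so no difference between groups can be told apart from a difference between codes.

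A hair grows from matrix cells at the base of the follicle, which differentiate upward into the hair shaft at the core and the inner root sheath around it. The inner root sheath hardens first, guides the shaft and is lost near the skin surface. Keratins form filaments from pairs of a type I and a type II chain, so both kinds are needed in each layer. Among these genes Krt25, Krt27, Krt28, Krt31, Krt34 and Krt35 are of type I, and Krt71, Krt72, Krt73 and Krt85 are of type II. The placed probes of the type I genes lie on chromosome 11 and those of the type II genes on chromosome 15, on the mm9 build of the array design. These genes are transcribed in growing follicles, and most other cells of skin or tumour lack them.

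Values below are log2 ratios of tumour Cy5 over reference Cy3, where 0 means equal signal and 1 more unit a doubling, and a difference is a difference of mean log2 ratios. For each gene the value comes from its brightest probe, and 1 probe's ratio is never set against another's as an amount of RNA. The Cy5 signal was above background on all 16 arrays for 11 of the 13 probes. The Krt72 probe missed this on resistant replicate 1 (15 of 16 arrays), and the dimmer Krt28 probe missed it on resistant replicate 1 and untreated replicate 4 (14 of 16). No member probe was saturated or had a missing value. The reference signal was above background on 11 to 16 arrays per probe, so ratios of the dimmest probes rest in part on the normalization of a weak reference spot. A probe's Cy3 signal differed between arrays, for Krt27 from 56 to 3273 units of intensity and for Krt73 from 376 to 1441. The cause was not tested, and ranges, SDs and differences below are those of the ratio, not of tumour RNA alone. For the brightest probe of each gene, every reference signal not above background was on untreated replicates 2 or 4 or resistant replicates 1 or 2. Across genes, resistant replicate 1 stood apart, with a median correlation of 0.698 with the other arrays, followed by untreated replicates 4 and 2 (0.836 and 0.846), and the highest array had 0.916. Results that rest on these arrays are also given without 1 of them. The number of arrays limits the precision.

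The promoters of 8 members are in the RefSeq table for GRCm38.p6, and 5 are shown as examples. Krt25, Krt31 and Krt34 moved together, and Krt71 and Krt73 moved apart on some arrays. Those of Krt27 and Krt28, which also moved with Krt25, are not shown. Each line holds the 250 bases before the annotated start on the gene's strand, and capitals mark the motifs that were searched on both strands. These were the TATA box, written TATAAA, and the LEF1 motif, written CTTTGA or CTTTGT.
Krt25, chr11:99322952-99323201, minus strand: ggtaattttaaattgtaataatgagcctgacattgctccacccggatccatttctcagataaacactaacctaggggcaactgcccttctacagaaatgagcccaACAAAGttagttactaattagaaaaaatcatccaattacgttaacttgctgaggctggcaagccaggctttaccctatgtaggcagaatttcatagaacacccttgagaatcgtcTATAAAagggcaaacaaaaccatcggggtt
Krt71, chr15:101743098-101743347, minus strand: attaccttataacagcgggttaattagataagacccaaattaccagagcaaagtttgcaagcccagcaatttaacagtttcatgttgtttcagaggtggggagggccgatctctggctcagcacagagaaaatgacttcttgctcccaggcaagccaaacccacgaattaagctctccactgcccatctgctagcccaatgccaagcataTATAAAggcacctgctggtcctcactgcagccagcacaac
Krt73, chr15:101802361-101802610, minus strand: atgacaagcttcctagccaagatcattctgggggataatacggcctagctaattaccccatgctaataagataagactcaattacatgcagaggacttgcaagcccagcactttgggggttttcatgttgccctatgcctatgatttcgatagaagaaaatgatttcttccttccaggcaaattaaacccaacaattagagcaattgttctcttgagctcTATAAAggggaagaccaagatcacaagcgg
Krt31, chr11:100050552-100050801, minus strand: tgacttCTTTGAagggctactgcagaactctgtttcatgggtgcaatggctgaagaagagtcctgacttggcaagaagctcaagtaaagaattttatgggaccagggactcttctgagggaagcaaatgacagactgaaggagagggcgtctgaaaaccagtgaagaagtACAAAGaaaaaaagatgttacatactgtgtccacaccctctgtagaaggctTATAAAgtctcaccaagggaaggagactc
Krt34, chr11:100041555-100041804, minus strand: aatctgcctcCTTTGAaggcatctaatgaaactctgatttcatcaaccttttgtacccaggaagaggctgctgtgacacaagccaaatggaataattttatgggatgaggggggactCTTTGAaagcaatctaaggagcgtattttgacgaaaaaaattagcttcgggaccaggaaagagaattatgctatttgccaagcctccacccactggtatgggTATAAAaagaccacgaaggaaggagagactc

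The TATA box motif was present in 8 of the 8 member windows, against 12.4% of all 32851 promoter windows of this length. On the gene strand and within the 50 bases before the start it was present in 7 of the 8, against 2.63% of all windows. In the 5 promoters shown its first base lay 30 bases before the start in Krt25 and Krt73, 40 in Krt71, 29 in Krt31 and 31 in Krt34. The exception was Krt72, whose motif lay 203 bases before the start on the other strand. The LEF1 motif was present in 4 of the 8 windows (Krt25, Krt28, Krt31 and Krt34), against 27.6% of all windows. Krt27, which followed Krt25 most closely of all members (Pearson's r = 0.993 across 16 arrays), did not have it. LEF1 is the nuclear partner of beta-catenin in Wnt signalling and is active in hair matrix cells. A match of 6 letters is a description of the sequence and not a binding site.

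The inner root sheath keratins were high above the reference in most biopsies and low in a few of them. Krt25, a type I keratin of this sheath, had log2 ratios of 5.66, 3.2, 5.24 and 2.31 in untreated tumours (replicates 1 to 4). It had 6.31, 5.46, 5.52 and 5.84 after 4 days, 5.82, 6.08, 5.74 and 5.75 after 60 days, and 2.83, 4.86, 4.86 and 5.63 in resistant tumours. Untreated replicates 2 and 4 and resistant replicate 1 were thus far below the other 13 arrays, and the 60-day arrays were close together. Krt27, another type I sheath keratin, had 5.4, 2.39, 4.72 and 1.85 in untreated tumours, 5.92, 5.21, 5.11 and 5.43 after 4 days, 5.44, 5.71, 5.23 and 5.33 after 60 days, and 2.6, 4.48, 4.53 and 5.49 in resistant tumours. Its low arrays were the same 3 as for Krt25. Krt28, the third type I sheath keratin, had 5.12, 1.22, 4.97 and 0.95 in untreated tumours, 6.04, 4.33, 5.14 and 5.49 after 4 days, 5.45, 5.77, 5.39 and 5.33 after 60 days, and 1.27, 3.06, 4.31 and 5.49 in resistant tumours. The range of the ratio over the 16 arrays was 16.8-fold for Krt27, whose uncorrected Cy5 signal ran from 286 to 87259 units of intensity. No such fold is given for Krt25 and Krt28, since the reference signal was not above background on their lowest array, untreated replicate 4. The dimmer Krt28 probe ran from 0.31, with neither dye above background, to 4.89.

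The type II sheath keratins had the same 3 low arrays but differed from each other elsewhere. Krt71, whose mutation gives mice a wavy coat, had 6.03, 4.47, 5.24 and 3.46 in untreated tumours, 6.6, 6.01, 5.63 and 5.69 after 4 days, 6.23, 6.2, 5.72 and 5.67 after 60 days, and 4.14, 6.05, 5.09 and 5.92 in resistant tumours. Krt72 had 3.35, 1.13, 3.58 and 1.27 in untreated tumours, 4.39, 2.27, 3.58 and 4.08 after 4 days, 3.67, 4.38, 4.02 and 3.93 after 60 days, and 0.05, 1.31, 2.82 and 3.64 in resistant tumours. On 4-day replicate 2 and resistant replicate 2, Krt72 was low and Krt71 was high relative to the same gene's other arrays. Krt73 had 2.61, -0.07, 3.7 and -0.22 in untreated tumours, 4.66, 2, 3.46 and 4.6 after 4 days, 2.91, 4.16, 4.16 and 4.23 after 60 days, and -0.02, 0.79, 2.44 and 3.07 in resistant tumours. Like Krt72 it was low on 4-day replicate 2 and resistant replicate 2, and Krt73 was also lower on 60-day replicate 1 than on the other 60-day arrays.

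The hair shaft keratins followed the sheath keratins from array to array. Krt31, a type I keratin of the cortex, had 3.33, 1.12, 2.93 and 0.92 in untreated tumours, 3.87, 3.07, 3.04 and 3.42 after 4 days, 3.54, 3.42, 3.24 and 3.3 after 60 days, and 0.62, 2.93, 2.58 and 3.24 in resistant tumours. Krt34, also a cortex keratin, had 5.06, 2.18, 5 and 1.84 in untreated tumours, 6, 4.65, 4.79 and 5.61 after 4 days, 5.54, 5.73, 5.27 and 5.29 after 60 days, and 0.71, 3.82, 4.46 and 4.98 in resistant tumours. Krt34 was lowest on resistant replicate 1, where its reference signal was not above background. Krt35, known in human follicles from the matrix and the hair cuticle, had 4, 2.4, 3.37 and 2.01 in untreated tumours, 4.28, 4.23, 3.61 and 3.79 after 4 days, 4.2, 4.31, 3.77 and 3.83 after 60 days, and 1.11, 3.58, 3.15 and 4.13 in resistant tumours. Krt35 too was lowest on resistant replicate 1, with the reference not above background, and the range of Krt31 was 9.49-fold.

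**Figure D1:**
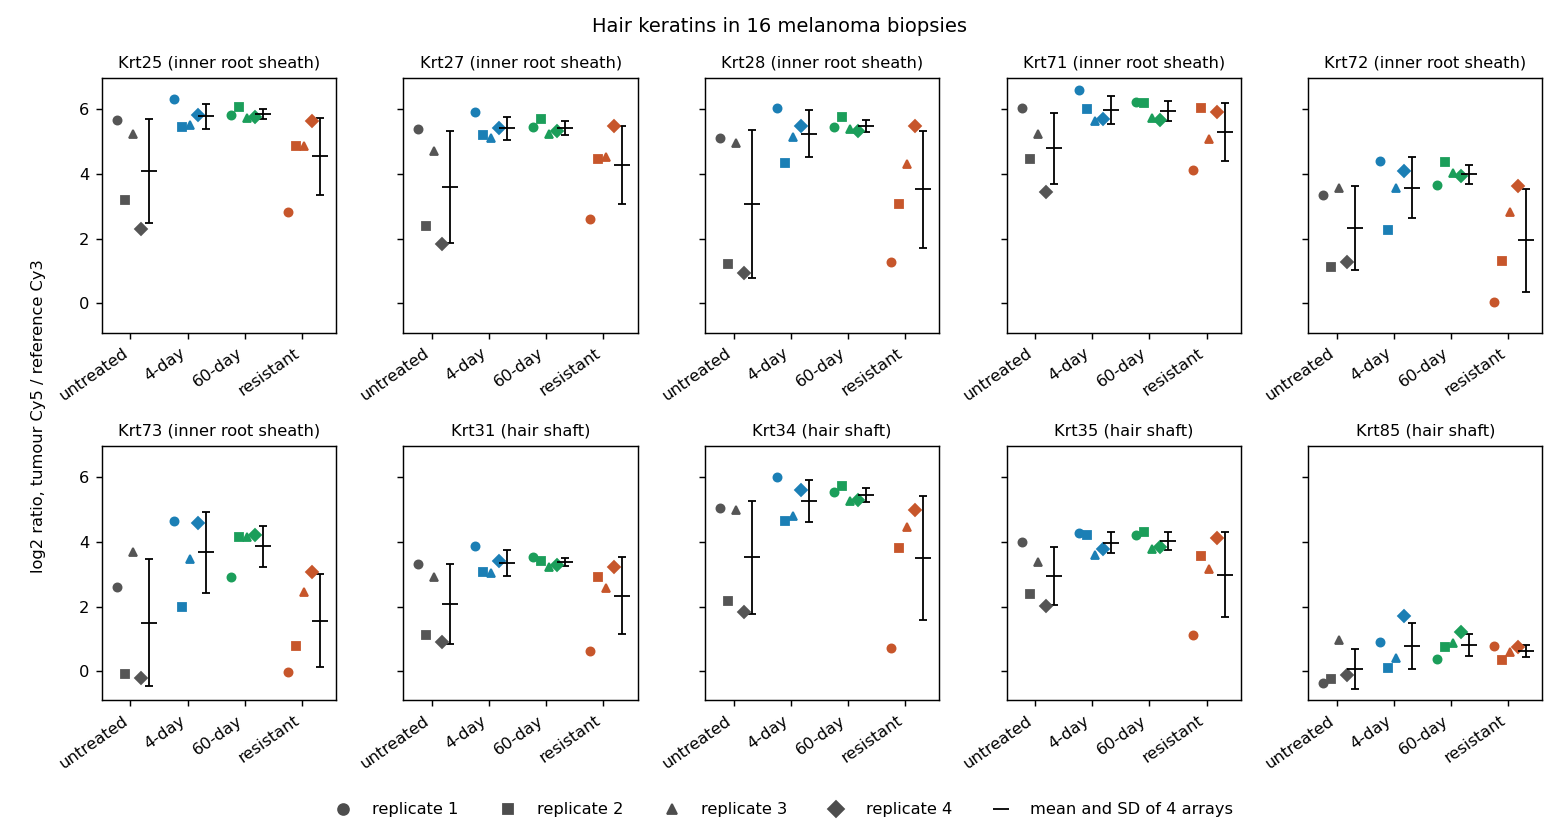
Log2 ratio of tumour Cy5 over reference Cy3 (vertical axis) of each of the 10 members in the 4 groups, with 1 symbol per array (the symbol gives the replicate number) and the mean and SD of 4 arrays as a black bar. Untreated replicates 2 and 4 and resistant replicate 1 are low in every panel but that of Krt85, where resistant replicate 1 is not low.

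Krt85, a type II keratin known in human follicles from the matrix and the hair cuticle, had a range of 4.19-fold by its brightest probe. By that probe it had -0.36, -0.23, 0.97 and -0.11 in untreated tumours, 0.9, 0.09, 0.42 and 1.71 after 4 days, 0.39, 0.75, 0.88 and 1.23 after 60 days, and 0.77, 0.36, 0.61 and 0.76 in resistant tumours. The 3 Krt85 probes disagreed. Probe A_55_P2086334 had 4.39, 2.06, 3.89 and 1.66 in untreated tumours, 4.89, 4.21, 4.09 and 4.37 after 4 days, 4.66, 4.71, 4.36 and 4.34 after 60 days, and 1, 4.15, 3.67 and 4.52 in resistant tumours. Its low arrays were untreated replicates 2 and 4 and resistant replicate 1, as for the other members. The third probe, A_55_P2086329, lay between, with ratios from 0.17 to 2.26. Its low arrays were untreated replicates 4 and 2 and resistant replicate 1, at 0.17, 0.26 and 0.29.

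Across the 16 arrays the correlation with the other 9 members was 0.206 to 0.666 for the brightest Krt85 probe (A_55_P1999364), 0.715 to 0.908 for A_55_P2086329 and 0.827 to 0.993 for A_55_P2086334. The brightest probe was so ranked by its mean over both dyes, and its reference signal was the strongest of the 3 (2339 to 6264 units of intensity, against 70 to 2105 for A_55_P2086334). The array design gives it no place in the genome. It places the other probes of Krt85 on chromosome 15 of mm9, at 101261695 to 101261754 (A_55_P2086334) and 101346117 to 101346176 (A_55_P2086329). Their starts are 84422 bases apart, whereas the 9 other members span 3906 to 10349 bases each in RefSeq, and which of them lies in the Krt85 gene was not tested. Which transcripts the unplaced probe bound was not tested, and values of Krt85 by the brightest probe are given as uncertain.

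**Figure D2:**
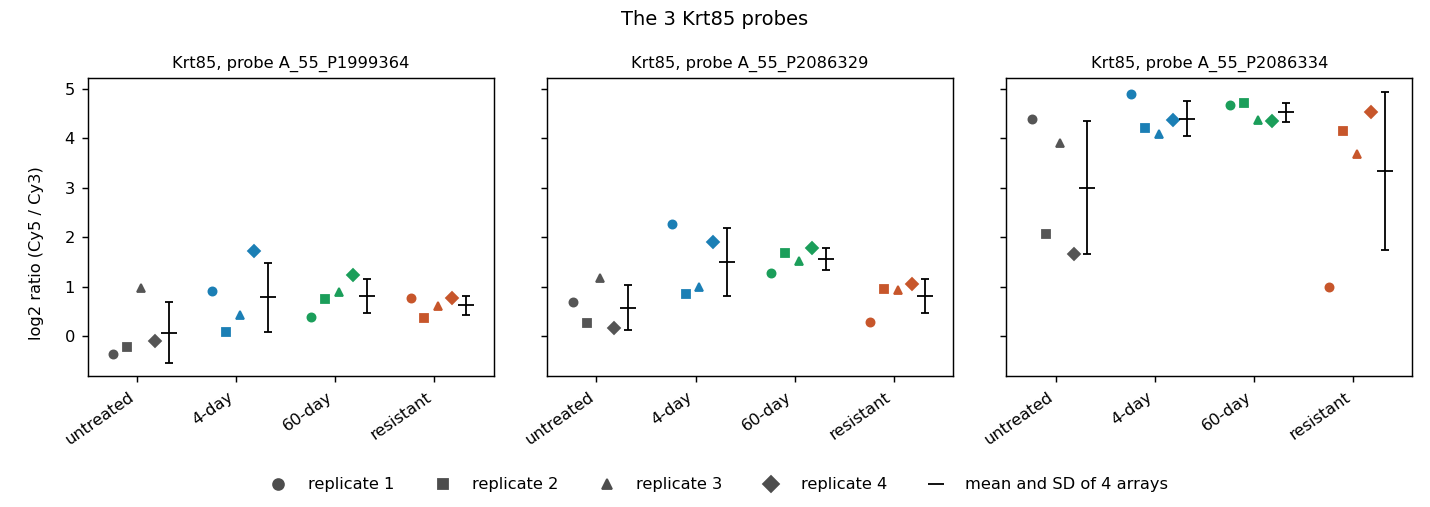
Log2 ratio (vertical axis) of the 3 Krt85 probes in the 4 groups, with 1 symbol per array and the mean and SD of 4 arrays. A_55_P2086334 spans 1 to 4.89 with the same low arrays as the other hair keratins, and A_55_P1999364 spans -0.36 to 1.71.

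A short treatment is addressed by 4-day against untreated tumours. All 10 members had a higher mean after 4 days, against 48.7% of all genes, with differences between 0.71 for Krt85 and 2.19 for Krt28 and a median of 1.48. No member passed the test (limma, 4 against 4 arrays, Benjamini-Hochberg adjustment over 21981 genes, threshold 0.05), where 1.34% of all genes did. At an unadjusted p under 0.05 there were 7 members, against 16.7% of all genes. That count was 0 without untreated replicate 2, without untreated replicate 4 or without 4-day replicate 1, and 3 without 4-day replicate 4. With the 2 groups alone in the model it was 5, and 29 of all 21981 genes but no member passed the adjusted test. Krt28 averaged 5.25 ± 0.72 after 4 days and 3.06 ± 2.29 in untreated tumours (SD, n = 4 each), a difference of 2.19 ± 0.97 (SE, adjusted p = 0.276, 95% interval 0.11 to 4.26). Krt73 had a difference of 2.17 ± 0.9 and Krt27 of 1.82 ± 0.7, with the lowest adjusted p of the members for Krt27 (0.212). The 6 sheath keratins had a median difference of 1.75 and the 4 shaft keratins of 1.15, with Krt85 by its brightest, uncertain probe. Its other probes had differences of 0.92 ± 0.3 (A_55_P2086329) and 1.39 ± 0.68 (A_55_P2086334). A difference of 1 or more was seen for 9 of the 10 members, against 3.09% of all genes, whose median difference was -0.01. The 4-day and untreated arrays overlapped for all 10 members, since untreated replicates 1 or 3 reached the 4-day values, whereas 2.81% of all genes were higher without overlap. The median difference was 1.59 on slide 1 and 1.35 on slide 2. It was 0.71 with the scanner software's processed signals and 3.05 with Cy5 alone (not divided by Cy3, but normalized with both dyes). No member passed in either. With the processed signals 9 of 10 members were higher, and the differences of Krt34 and Krt25 were -0.1 ± 0.47 and 0.14 ± 0.27.

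A longer treatment is addressed by 60-day against untreated tumours. All 10 members again had a higher mean, against 50.2% of all genes, with differences between 0.75 for Krt85 and 2.42 for Krt28 and a median of 1.71. No member passed the test (limma, adjusted p between 0.184 and 0.297), where 0.819% of all genes did. At an unadjusted p under 0.05 there were 9 members, against 18.7% of all genes, with Krt35 the exception (unadjusted p = 0.0623 by limma). That count was 0 without untreated replicate 2 or without untreated replicate 4, 3 without 60-day replicate 2, and 5 without 60-day replicate 3 or 4. With the 2 groups alone in the model it was 10, and 1258 of all 21981 genes but no member passed the adjusted test. A difference of 1 or more was seen for 9 of 10 members, against 4% of all genes. Krt85, the exception, had 0.98 ± 0.3 by probe A_55_P2086329 and 1.52 ± 0.68 by A_55_P2086334. Krt25 averaged 5.85 ± 0.16 after 60 days and 4.1 ± 1.61 in untreated tumours (SD, n = 4 each), a difference of 1.75 ± 0.66 (SE, adjusted p = 0.184). Krt28 averaged 5.48 ± 0.19 and 3.06 ± 2.29 (60-day, then untreated), a difference of 2.42 ± 0.97 (limma adjusted p = 0.204). No fold is given for it, since its reference signal was not above background on untreated replicates 2 and 4. For Krt25, Krt28, Krt72 and Krt34 the lowest 60-day array lay above the highest untreated one, so 4 of 10 members were higher without overlap, against 7.39% of all genes. The comparisons of 4-day and of 60-day with untreated tumours share the untreated arrays, so their likeness is not independent. The median difference was 1.71 on slide 1 and 1.59 on slide 2, and 0.78 with the scanner software's processed signals and 2.9 with Cy5 alone. With the processed signals 9 of 10 members were higher.

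Between resistant and untreated tumours the differences of means were smaller than the SD of either group for 9 of the 10 members. They ran from -0.38 for Krt72 to 0.68 for Krt27, with a median of 0.36, and 8 of 10 were positive, against 52.2% of all genes. No member passed the test (limma, adjusted p between 0.64 and 0.996), where 0.0182% of all genes did. No member reached an unadjusted p under 0.05, against 9.52% of all genes, and the lowest was 0.114 by limma, for Krt85. The Krt85 difference was 0.56 by that brightest probe, and 0.23 and 0.33 by A_55_P2086329 and A_55_P2086334. Krt34 averaged 3.49 ± 1.92 in resistant and 3.52 ± 1.75 in untreated tumours (SD, n = 4 each), and its 95% interval of -1.88 to 1.82 leaves room for a difference of either sign. The slides gave different answers here. On slide 1, which held replicates 3 and 4 of each group, all 10 differences were positive (median 1.08). On slide 2, which held replicates 1 and 2, 1 of 10 was positive (median -0.72). The resistant biopsies on slide 1 carry the code RG5 and those on slide 2 the code RG4. Slide and title code therefore cannot be told apart for the resistant group. Without untreated replicate 4 the median over all arrays was -0.19 with 3 of 10 positive, and without resistant replicate 1 it was 0.86 with 10 of 10 positive. Without untreated replicate 2 or without resistant replicate 4, 4 of 10 were positive.

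**Figure D3:**
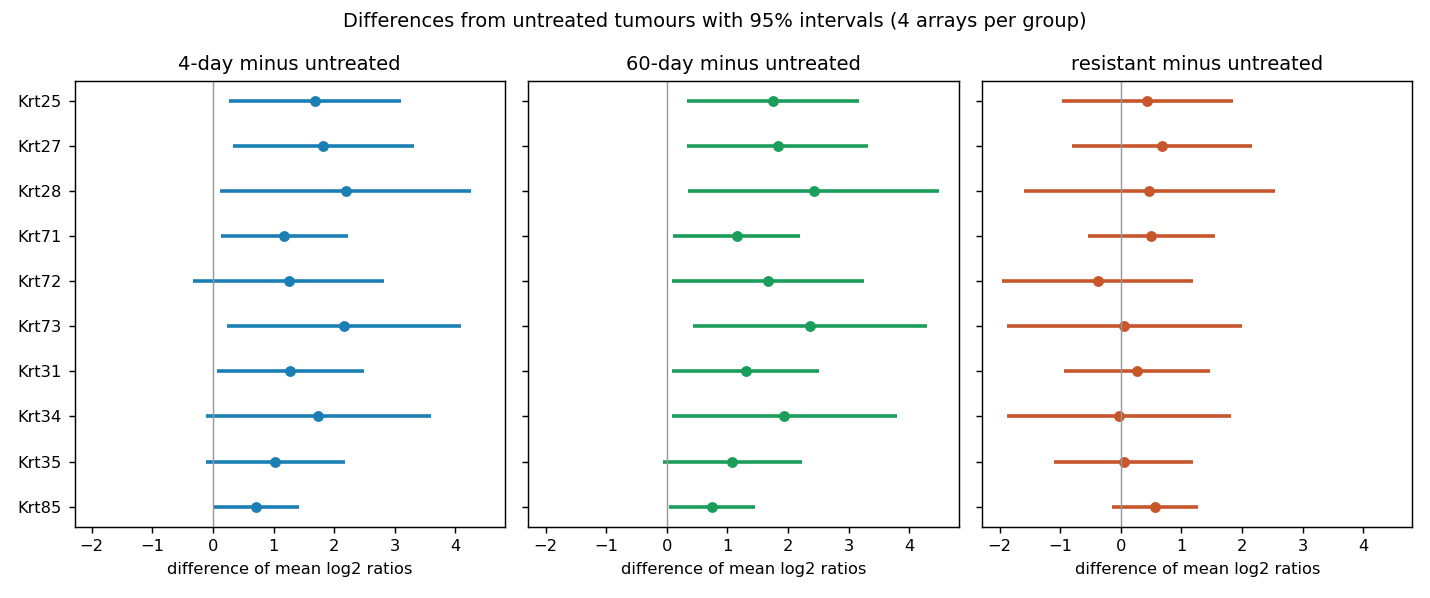
Difference of mean log2 ratio from untreated tumours (horizontal axis) for each member after 4 days, after 60 days and in resistant tumours, as a point with its 95% interval from limma (4 arrays per group). Every point is above 0 after 4 and after 60 days, the intervals are wide, and the resistant points lie between -0.38 and 0.68.

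Among treated tumours, the resistant ones had lower means than the 60-day ones for all 10 members, against 50.6% of all genes, with a median difference of -1.23. The largest were -2.29 ± 0.9 for Krt73 and -2.05 ± 0.74 for Krt72. No member passed the test (limma, adjusted p of 0.867 or more), nor did any other gene (percent called 0), and 3 members had an unadjusted p under 0.05 (Krt72, Krt73 and Krt34), against 5.67% of all genes. That count was 0 without resistant replicate 1, 1 without resistant replicate 2 or 60-day replicate 4, 5 without untreated replicate 1 or 4, and 7 without resistant replicate 4. Krt25, Krt72, Krt31 and Krt34 were lower without overlap, 4 of 10 members against 2.52% of all genes. A difference of -1 or beyond was seen for 8 of 10 members, against 1.97% of all genes. Krt85 had -0.19 by its brightest probe, -0.74 by A_55_P2086329 and -1.18 by A_55_P2086334. Krt72 averaged 1.95 ± 1.59 in resistant and 4 ± 0.29 in 60-day tumours (SD, n = 4 each). Against 4-day tumours the resistant means were also lower for all 10 members (median -1.19), against 48.1% of all genes. None passed the test (limma, adjusted p between 0.581 and 0.963), where 0.00455% of all genes did, and 2 members (Krt72 and Krt73) had an unadjusted p under 0.05, against 8.19% of all genes. That count was 0 without resistant replicate 1 or 2 or 4-day replicate 1, 3 or 4, 1 without any one of the 60-day replicates, 4 without untreated replicate 4, and 7 without resistant replicate 4. All 10 members overlapped between these groups, where 1.35% of all genes were lower without overlap, and 7 of 10 were lower by 1 or more, against 1.71% of all genes. Here Krt85 had -0.16 by its brightest probe, -0.69 by A_55_P2086329 and -1.06 by A_55_P2086334. Between 60-day and 4-day tumours the median difference was 0.06, with a range of -0.03 to 0.42 and 9 of 10 above 0, against 54.5% of all genes. Without 4-day replicate 2 there was 1 of 10 above 0, and without 4-day replicate 3 there were 4. For these groups 0 members and 0% of all genes passed the test, and the lowest unadjusted p of a member was 0.576 by limma. Without resistant replicate 1 the median differences were -0.66 from 60-day and -0.62 from 4-day tumours. The order of group means was 60-day, 4-day, resistant and untreated, high to low, for 7 members. Krt71 had 4-day above 60-day tumours by 0.03, and Krt72 and Krt34 had untreated above resistant tumours. No neighbours in these orders passed the limma test.

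The members differed widely between biopsies of 1 group. In untreated tumours the SD of a member over 4 arrays was 0.61 to 2.29 with a median of 1.46, while the median gene had 0.24. In resistant tumours the median member SD was 1.26, against 0.26 for the median gene. It was 0.55 after 4 days and 0.24 after 60 days, against 0.27 and 0.19 for the median gene. A member SD above the 95th percentile of all genes was seen for 9 of 10 members in untreated, 2 in 4-day, 1 in 60-day and 8 in resistant tumours. Untreated replicates 2 and 4 were among the 3 lowest of 16 arrays for 10 of 10 members, and resistant replicate 1 for 9 of 10. At the other end 4-day replicate 1 was among the 4 highest for 10 of 10 and 60-day replicate 2 for 9 of 10. The low arrays did not share a slide or a title code, since untreated replicate 4 was on slide 1 and untreated replicate 2 and resistant replicate 1 were on slide 2. In whole-tissue RNA, fewer follicle cells and less keratin RNA per cell cannot be told apart.

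The members varied together from array to array. Over the 36 pairs of the 9 members other than Krt85, Pearson's r across 16 arrays was 0.715 to 0.993 with a median of 0.938. Within the shaft keratins it was 0.945 to 0.978, and between sheath and shaft keratins 0.762 to 0.984. Without untreated replicate 4 and resistant replicate 1, the arrays farthest from the median, the 36 values were 0.456 to 0.99. Untreated replicate 2 was kept, here and below, though its sheath mean of 2.06 was near theirs (1.6 and 1.81). These values therefore do not show how the members varied apart from all the low arrays. The arrays share dye, reference and normalization, so these correlations are a description.

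**Figure D4:**
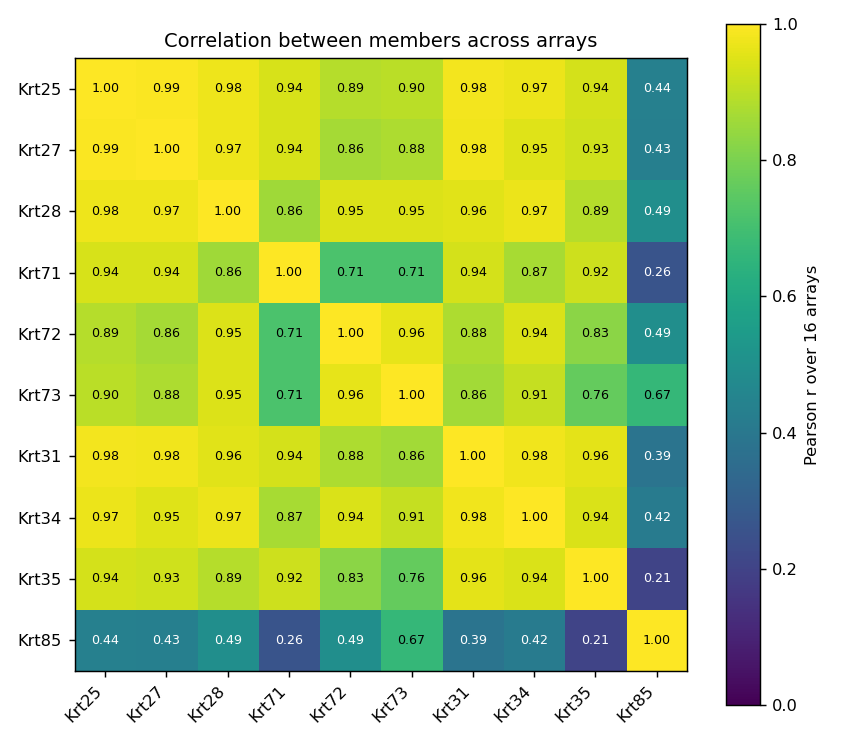
Pearson's r across 16 arrays for each pair of members (rows and columns, colour scale 0 to 1, value printed in each cell), each gene by its brightest probe. The 9 members other than Krt85 have values from 0.715 to 0.993, with the lowest for Krt71 against Krt72 and Krt73.

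The lowest values among the sheath keratins were those of Krt71 with Krt72 and with Krt73, both 0.715, while Krt72 and Krt73 had r = 0.962 with each other. In human follicles Krt72 and Krt73 are known from the cuticle of the inner root sheath alone, and Krt71 from all its layers. Krt26, chosen here after its values were seen because it is the third keratin of that cuticle in human follicles, followed Krt73 (r = 0.987) and Krt72 (r = 0.953) and less so Krt71 (r = 0.663). On 4-day replicate 2 Krt26 had 2.14, against 4.03 to 6.04 on the other 4-day arrays, and on resistant replicates 1 to 4 it had 0.38, 0.45, 2.94 and 3.49. Part of this split went with the slide, which within the 60-day and resistant groups cannot be told apart from the title code. Krt73 minus Krt71 was -5.26 to -1.94 over the 8 arrays of slide 2 and -3.69 to -1.1 over the 8 of slide 1. Within slide 1, Krt71 had r = 0.957 with Krt72 and 0.91 with Krt73, and within slide 2 it had 0.839 and 0.835. With the groups in the model, Krt73 was lower on slide 2 than on slide 1 by 1.05 ± 0.6 and Krt71 higher by 0.41 ± 0.34. No member passed the test for the slide (limma, adjusted p between 0.101 and 0.939), where 28.4% of all genes did.

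The genes outside the keratin family whose pattern was most like the mean of the 6 sheath keratins were Tchh, Krtap6-5, Krtap4-7, Gm11563 and Krtap7-1, with r from 0.987 to 0.994 over 16 arrays. Tchh encodes trichohyalin, which fills cells of the inner root sheath and medulla, and its log2 ratio ran from 3.26 to 9.69. For the mean of the 4 shaft keratins, with Krt85 by its brightest probe, they were S100a3, Krtap26-1, Krtap5-5, Vsig8 and Krtap17-1, with r from 0.986 to 0.993. S100a3 encodes a calcium-binding protein of the hair cuticle, and the Krtap genes encode proteins that embed keratin filaments in the shaft. None of these 10 genes passed the test in any comparison. Tchh, for example, differed between 60-day and untreated tumours by 2.78 ± 1.14 (means 8.7 and 5.92, limma adjusted p = 0.214). The search covered 15804 genes with a symbol in RefSeq, and the likeness is a description.

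Most other follicle genes measured also had higher means in 4-day and 60-day tumours than in untreated ones. Of 13 further hair and root sheath keratins 11 were measured, and all 11 had higher means after 4 days (median difference 1.59) and after 60 days (1.79) than untreated tumours, with 0 past the test and medians of -0.01 and 0 over all genes. Krt33a, a cortex keratin, averaged 7.29 after 60 days and 5.02 in untreated tumours, a difference of 2.27 ± 1.02 (adjusted p = 0.247). Of 14 structural and hardening proteins, 13 were higher after 4 days and 12 after 60 days, with medians of 1.13 and 1.29 and 0 past the test. Gprc5d, a receptor of hair-forming cells, had r = 0.987 with the sheath mean and Padi3, an enzyme that modifies trichohyalin, 0.962. Tgm3 (r = -0.077) and Crym (r = -0.005) of the same list did not follow. Of 22 follicle regulators 20 were measured, and 19 were higher after 4 days and 19 after 60 days, with medians of 0.91 and 1.04 and 0 past the test. Between resistant and untreated tumours the median difference was 0.18 for the further keratins, 0.04 for the structural proteins and 0.01 for the regulators. It was 0.01 over all genes. Foxn1 (r = 0.927), Msx2 (0.91), Hoxc13 (0.892) and Gata3 (0.892), transcription factors of the hair matrix or inner root sheath, tracked the sheath mean, and Lef1 had 0.733. Nfatc1 (-0.32), a factor of resting stem cells of the bulge, and Msx1 (-0.143) did not.

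Keratins of the outer root sheath and genes of the epidermis had other orders of the untreated arrays than the members. The mean log2 ratio of the 6 sheath keratins was 4.69, 2.06, 4.58 and 1.6 on untreated replicates 1 to 4. The mean of 8 outer root sheath and companion layer keratins was 4.07, 3.94, 3.74 and 3.43 on the same arrays, and that of 15 epidermal genes 3.53, 3.82, 3.56 and 3.33. Untreated replicate 2, low in hair keratins, had the highest epidermal mean of the 4, and untreated replicate 4 was the third lowest of 16 arrays in both lists. On resistant replicate 1 all were low, with 1.81 for the sheath keratins, 2.68 for the outer root sheath list and 1.14 for the epidermal list. Over 16 arrays the sheath mean had r = 0.525 with the outer root sheath list and 0.621 with the epidermal list, which were 0.117 and 0.251 without the 2 arrays farthest out. All 15 epidermal genes had higher means after 4 days and after 60 days than in untreated tumours, with medians of 0.72 and 1.08 and 0 past the test. The epidermal mean was 4.24 to 4.97 on the 60-day and 3.33 to 3.82 on the untreated arrays, without overlap. Krt10, a keratin of differentiating epidermis, averaged 5.82 after 60 days and 4.76 in untreated tumours, a difference of 1.06 ± 0.83 (limma adjusted p = 0.534), also without overlap. Krt75, a keratin of the companion layer, stood out in the outer root sheath list with r = 0.838, against 0.14 for Krt5. Krt5, the basal keratin, averaged 3.76 after 4 days and 3.61 in untreated tumours, a difference of 0.15 ± 0.3 (limma adjusted p = 0.89).

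**Figure D5:**
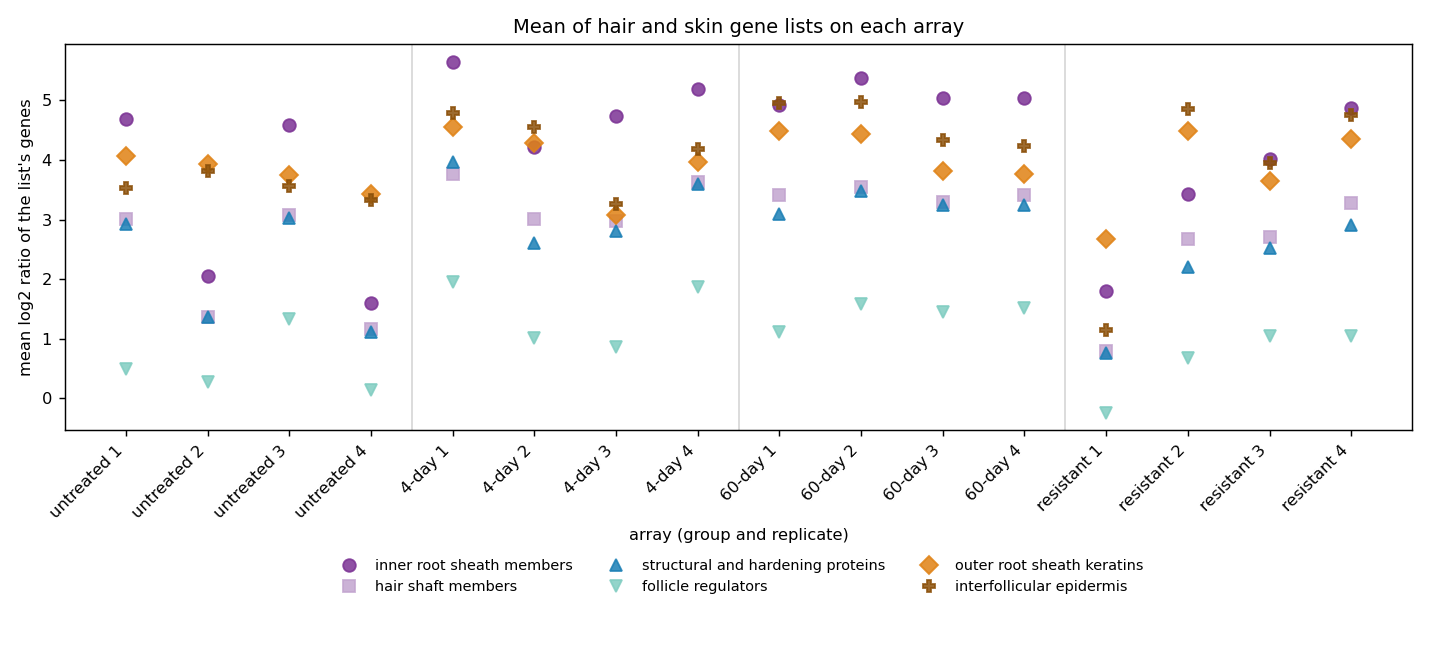
Mean log2 ratio (vertical axis) of 6 gene lists on each of the 16 arrays (horizontal axis, by group and replicate), with 1 symbol per list. Resistant replicate 1 and untreated replicates 4 and 2 are lowest for the hair lists, while for the outer root sheath and epidermal lists resistant replicate 1, 4-day replicate 3 and untreated replicate 4 are lowest.

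Markers of the other cells a skin tumour biopsy can hold were summarised in the same way. The 13 sebaceous gland genes had 3 past the test after 4 days (Scd1, Pparg and Plin2) and 2 after 60 days (Scd1 and Plin2), all higher than in untreated tumours, where 1.34% and 0.819% of all genes passed. Awat2, Mc5r, Elovl3, Far2 and Krt79 of the list did not pass. Which cells gave the signal of the genes that passed was not tested. Scd1, a fatty acid desaturase, averaged 3.51 after 60 days and 1.84 in untreated tumours (1.67 ± 0.3, limma adjusted p = 0.0252). The sebaceous mean was 2.09 to 2.85 on the 4-day and 60-day arrays and 1.17 to 1.8 on the 4 untreated arrays, without overlap, while resistant replicates 1 to 4 had 0.41, 2.7, 2.45 and 2.61. Its r with the sheath mean was 0.736, and 0.463 without the 2 arrays farthest out. Of 12 melanocyte genes Mitf alone passed the test, higher after 4 days (0.88 ± 0.2, adjusted p = 0.0459), and the list mean of 1.32 to 3.28 was above the reference on all arrays. It was 2.35 to 3.11 on the 60-day and 1.54 to 1.92 on the untreated arrays, without overlap. Hair bulbs hold melanocytes too, so the melanocyte list is not specific to the tumour, and its r with the sheath mean was 0.52, and 0.253 without the 2 arrays farthest out.

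The 10 dermal papilla genes had Vcan lower after 4 days (-1.84 ± 0.3, adjusted p = 0.0129) and Prom1 higher after 60 days (0.99 ± 0.21, adjusted p = 0.0417), and the list had r = -0.414 with the sheath mean. Of 14 cell cycle genes, Pcna, Mcm3, Mcm4 and Mcm6 passed as lower after 4 days (-0.67 ± 0.12 for Mcm3, limma adjusted p = 0.0224) and Mcm3 after 60 days (-0.59 ± 0.12, adjusted p = 0.0382), against the same 1.34% and 0.819% of all genes, and the list mean had r = 0.061 with the sheath mean. Of 8 fibroblast genes none passed, and their mean had r = -0.623 with the sheath mean. In the skeletal muscle, adipocyte, leukocyte and endothelial lists none passed either, with r of -0.145, 0.491, -0.373 and -0.366. The part that the amount of skin or of growing follicles in a biopsy has in the differences of the hair keratins was not tested.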

How the data were processed

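Per the file headers, Agilent Feature Extraction 10.7.3.1 gave the deposited intensity values of each spot and its background in Cy5 and Cy3, and a processed log10 ratio. Per the file headers, other columns (other) hold flags for spots above background, saturated or not uniform. The authors' deposited value table holds log2 ratios and lacks 36.2% to 51.3% of the probes per array.

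Intensities were background-corrected (normexp, offset 50) and normalized within each array by loess with limma 3.58.1 in R 4.3.3. Spots flagged as outliers were dropped (0.55% of values) and spots of a probe averaged. Symbols were taken from RefSeq for 28026 probes, of which 1651 had another symbol in the array files. A probe was kept with Cy5 above background on at least 4 of 16 arrays (30481 probes), and a gene took its probe of highest mean intensity. The 4 groups entered 1 limma model, and p-values were adjusted over 21981 genes. The method was tested on simulated data. The rule for named genes took all members, the 5 most similar genes per class, and per list those past the test (at most 4) or else the 2 brightest; genes named for their r or Krt26 were added after values were seen. Members and the 14 lists were chosen with earlier results of these data known. The labels do not say whether biopsies came from separate mice, so p-values measure only the spread between these samples. Slide, normalization, filter, probe choice, single groups and leaving out each array were varied.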

Additional observations from a re-analysis of the deposited data

Results flagged for a closer look

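Of 52 sets of 4 arrays (13 probes in 4 groups), 1 held an array far from the other 3 by Dixon's criterion, and chance gives about 5%. Krt73 was lowest on 60-day replicate 1, at 2.91, with the nearest 60-day array at 4.16. This array was on slide 2, and Krt71 was 6.23 on it, the highest of the 60-day values.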

How the results depend on the processing

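No member was called in any of the 6 comparisons under any of the 28 other settings, and 1 of them, the probe with the highest Cy5 intensity, was chosen after seeing the data. Cy5 alone means Cy5 not divided by Cy3, but still normalized with the use of both dyes, so it is not free of the reference. With it the median member difference was 3.05 for 4-day minus untreated and 2.9 for 60-day minus untreated. It was -3.04 for resistant minus 4-day and -3.09 for resistant minus 60-day, and the cause was not tested. With the processed signals of Feature Extraction it was 0.71 and 0.78 for 4-day and 60-day minus untreated, and 0.7 and 0.78 with the deposited value table. For resistant minus 4-day and minus 60-day it was -0.49 in both with the processed signals and -0.37 and -0.33 with the table. Leaving out 1 array at a time gave medians of 0.99 to 1.94 for 4-day minus untreated, 1.2 to 2.14 for 60-day minus untreated, -0.19 to 0.86 for resistant minus untreated, -0.05 to 0.22 for 60-day minus 4-day, -1.57 to -0.62 for resistant minus 4-day and -1.61 to -0.66 for resistant minus 60-day. The lowest of the first 3 came without untreated replicate 4, and resistant minus untreated was highest without resistant replicate 1, as were resistant minus 4-day and minus 60-day. Slide as a block left every median as it was, which the design fixed in advance, since each slide held the same number of arrays of each group. Calls over all genes were 295 for 4-day minus untreated and 0 to 702 under other settings, and 180 for 60-day minus untreated and 0 to 1258, and 4 for resistant minus untreated and 0 to 176. No paired analysis was possible because the replicate numbers only name the arrays within a group and tie no arrays of different groups together.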
